A study of Mus musculus with 14 samples.

Results

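Lymphatic endothelial cells cut by laser capture from the medullary sinus of mouse lymph nodes were compared with those cut from the subcapsular sinus, 5 samples a sinus. These are 10 of the 14 samples of the series, taken by their titles as replicates 1 to 5 of each sinus. All came from C57Bl/6 mice with no treatment or altered allele named, and each held 50 cells collected from dried frozen sections of inguinal, axillary and brachial nodes stained for CD31 and F4/80. The labels call the replicates biologic ones and do not tie them to animals. Where samples of the same sinus share an animal, the p-values over samples are too small. Where a subcapsular and a medullary sample share one, the fit leaves that pairing out. The other 4 samples were sorted by flow cytometry from digested nodes of more sites, mesenteric and cervical ones among them, 1200 cells each, and serve here as a comparison. The cells were chosen for CD31 staining, and CD31 is also carried by blood endothelium.

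Afferent lymph enters a lymph node under its capsule, runs through the subcapsular sinus, and leaves through the medullary sinuses to the efferent vessel. The subcapsular floor faces the B cell follicles and is lined with macrophages that catch particles and pass antigen to B cells. Medullary sinuses run between cords that hold plasma cells, macrophages and blood vessels, and lie near high endothelial venules, the blood vessels through which lymphocytes enter the node.

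The laser-captured arrays lay on 2 slides. Row 1 of slide 1 held subcapsular replicates 1 to 4, row 2 of slide 1 held subcapsular replicate 5 and medullary replicates 1 to 3, and row 1 of slide 2 held medullary replicates 4 and 5. Medullary arrays had more of the 55681 probes well above background (71.4% ± 3.48 against 58.6% ± 6.68, SD, n = 5 each; exact two-sided permutation test, p = 0.0238). Levels are log2 intensities minus the 75th percentile of the array, so a level of 0 is that percentile's signal. The median probe lay at −2.49 ± 0.45 on medullary and −3.44 ± 0.343 on subcapsular arrays (SD, n = 5 each). Pairs of arrays of the same sinus correlated across genes at 0.638 to 0.798, and pairs of different sinuses at 0.639 to 0.739. Of the lymphatic markers, Prox1, the transcription factor that sets lymphatic fate, was above background on all 10 arrays. Lyve1, a hyaluronan receptor, and Flt4, the receptor of the lymphatic growth factor VEGF-C, were each above background on 3 of 5 arrays of each sinus. Pdpn, the podoplanin gene, was above background on 1 subcapsular and 4 medullary arrays, and Pecam1, which encodes CD31, on all 10.

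The question was how gene expression in the sinus that receives lymph differs from that in the sinus that drains it. Of 34741 genes, 27356 were tested because 3 or more of the 5 arrays of either sinus had them above background. Limma called 46 genes higher (0.168% of those tested) and 2 lower (0.00731%) in the medullary sinus at a Benjamini-Hochberg adjusted p under 0.05, which is 0.175% in either direction. At an unadjusted p under 0.05 there were 1881 higher (6.88%) and 1316 lower (4.81%). The groups did not overlap for 283 genes higher (1.03%) and 563 genes lower (2.06%) in the medullary sinus. The higher ones were fewer and further apart, with a median difference of 3.47 on the log2 scale against 1.54 for the lower ones. Most of the higher ones, unlike the lower ones, were below background on some array, where a level depends on the background correction. Genes above background on all 10 arrays, 14576 in all, split more unevenly, with 87 higher (0.597%) and 521 lower (3.57%) without overlap. After quantile normalization the same genes gave 314 higher and 387 lower. When only these genes were fitted, limma called 4 (0.0274%). By sign alone, 52.6% of all genes tested were higher and 47.4% lower. Over all genes tested, the groups did not overlap for 438 higher (1.6%) and 527 lower (1.93%) after quantile normalization, for 437 (1.6%) and 528 (1.93%) with the deposited table, and for 132 (0.483%) and 588 (2.15%) with normexp. Of the non-overlapping genes, 95 higher and 174 lower remained without overlap also with normexp, quantile normalization and the deposited log2 table. The median standard error of a difference was 0.9.

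Genes of high endothelial venules and blood endothelium were higher in the medullary samples. Fut7, the fucosyltransferase that makes selectin ligands on high endothelial venules, measured −3.81, −1.89, −3.62, −3.75 and −3.57 in subcapsular replicates 1 to 5 and 2.87, 3.23, 2.54, 3.27 and 5.24 in medullary replicates 1 to 5. It rose 108-fold (difference 6.76 ± 0.64, SE; limma adjusted p = 0.00385), the groups lay far apart, and both of its 2 probes pointed the same way. Ackr1, the atypical chemokine receptor of venules, measured −1.51, −1.14, −2.94, −2.75 and −2.6 in subcapsular and 1.76, 4.0, 2.49, 4.19 and 3.8 in medullary replicates. It rose 43.4-fold (5.44 ± 0.65, SE; limma adjusted p = 0.0163), again with a wide gap between the sinuses. Chst4, a sulfotransferase acting on L-selectin ligands, measured −0.8, −0.74, −1.96, −1.93 and −2.0 in subcapsular and 0.4, 3.85, 3.64, 3.69 and 3.35 in medullary replicates. Medullary replicate 1 was the low one there and still above every subcapsular array (22.2-fold; 4.47 ± 0.73, SE; limma adjusted p = 0.0471). Leaving out each of the 10 arrays in turn, limma kept the call of Chst4 in 1 case, with an adjusted p up to 0.11, and with the row block it was 0.0818.

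Glycam1, the secreted mucin that L-selectin binds, measured 4.81, 7.28, 5.35, 6.56 and 5.46 in subcapsular and 7.48, 7.64, 7.63, 7.72 and 7.88 in medullary replicates. The difference was 1.78 ± 0.55 and did not pass (limma adjusted p = 0.274), although the groups did not overlap. The medullary arrays agreed within 0.5 of each other, while the subcapsular ones spread over more than 2 log2 units. Esam, an adhesion molecule of endothelial tight junctions, differed by 3.78 ± 0.64 (limma adjusted p = 0.053). Vwf, von Willebrand factor, measured −0.11, −4.36, −2.73, 2.26 and −3.6 in subcapsular and 3.27, 3.69, 4.09, 4.75 and 4.83 in medullary replicates. Its difference of 5.84 ± 1.16 did not pass (limma adjusted p = 0.0972), with subcapsular replicate 4 close to the medullary range. Emcn, the endomucin of venous and capillary endothelium, differed by 5.08 ± 1.19, Ptprb, the endothelial phosphatase that restrains Tie2, by 3.0 ± 0.62, and Cav1, the coat protein of caveolae, by 2.86 ± 0.65 (limma adjusted p from 0.12 to 0.161). In all 3 the groups did not overlap with this scaling, but they did after quantile normalization and with the deposited table. Those of Ptprb overlapped with normexp too. Emcn was above background on 2 subcapsular and 5 medullary arrays, and its highest subcapsular value (−0.58) nearly met its lowest medullary one (−0.51).

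As a list, blood endothelium and high endothelial venules had 25 genes, of which 22 were tested and 15 were above background on all 10 arrays. Limma called 4 of the 22 higher and none lower, and 9 were higher without overlap, beside 1.03% of all genes. The median difference was 1.67 over the 22 and 1.54 over the 15 (all genes 0.08 and −0.26), and 2.25 over the 22 after quantile normalization (all genes −0.01). Within row 1 the median was 2.02 and within row 2 it was 2.23, and without each array in turn it was 1.53 to 1.91. The mean level of the list was −1.68 to −0.13 on subcapsular and 0.93 to 1.92 on medullary arrays. The summed level, in multiples of the 75th percentile, overlapped (87.1 to 467 on subcapsular and 279 to 461 on medullary arrays), and 3 members were above background on no subcapsular array. All but 3 of the listed genes also stand in another of the lists used here. In samples of this kind, fewer cells of a type and less RNA per cell cannot be told apart, and the part of blood vessel cells in these values was not tested.

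**Figure D1:**
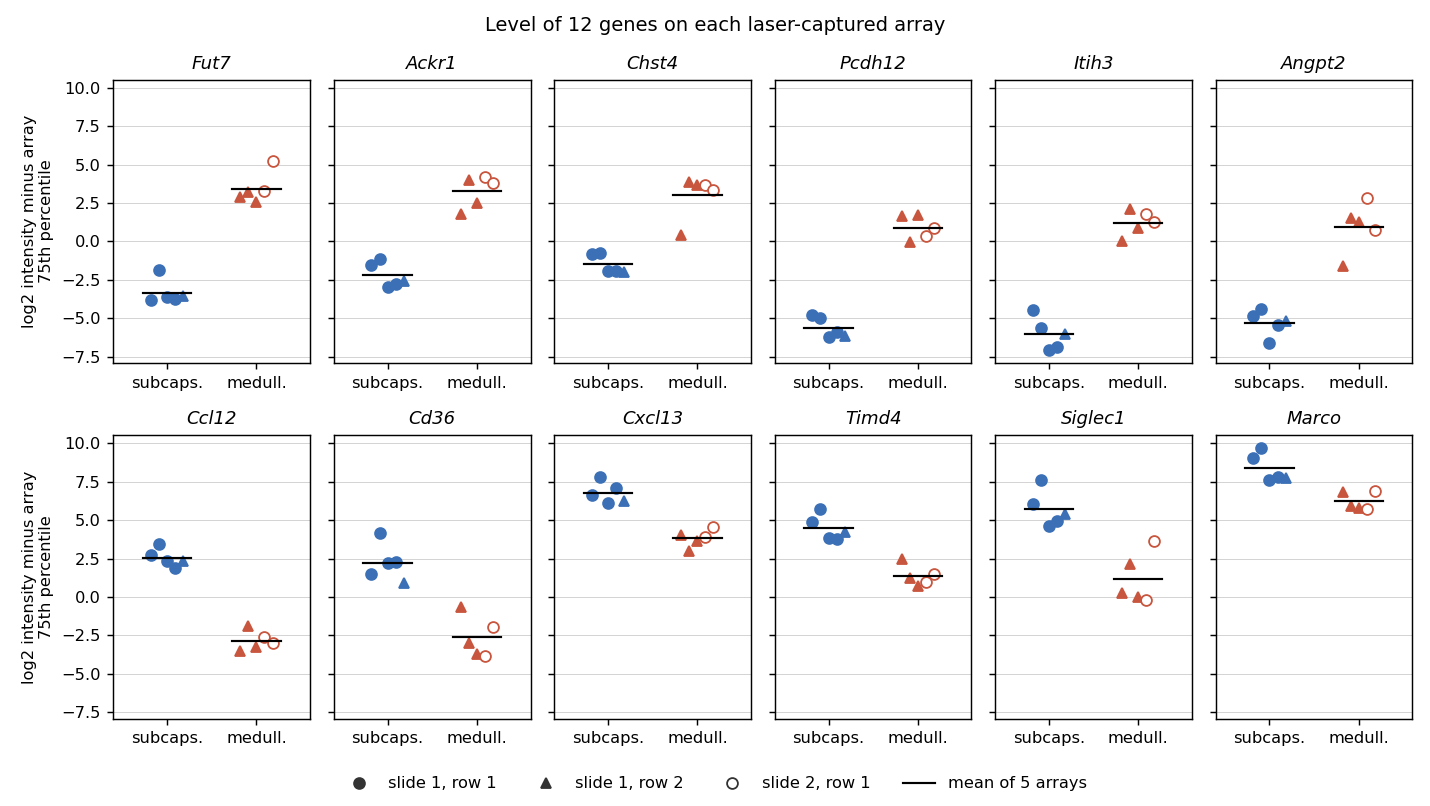
Level of 12 genes on each laser-captured array, as log2 intensity minus the array's 75th percentile, for 5 subcapsular (blue) and 5 medullary (red) samples; symbols give slide and row and the line is the mean. The upper 6 genes were higher and the lower 6 lower in every medullary array than in every subcapsular array.

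Promoters of Fut7 and Ackr1, both called higher, and of the chemokine genes Ccl12, called lower, and Cxcl13, lower without overlap but not called, are shown for the motifs at their starts. They are RefSeq windows of GRCm38.p6, 5′ to 3′ on the gene's strand. Capitals mark matches on either strand. TATAAA is a TATA box, ACAGGAAG is the site of an ETS family factor, and AGATAAG that of a GATA family factor, found in Ackr1 on the opposite strand only.
Fut7, chr2:25422992-25423291, + strand: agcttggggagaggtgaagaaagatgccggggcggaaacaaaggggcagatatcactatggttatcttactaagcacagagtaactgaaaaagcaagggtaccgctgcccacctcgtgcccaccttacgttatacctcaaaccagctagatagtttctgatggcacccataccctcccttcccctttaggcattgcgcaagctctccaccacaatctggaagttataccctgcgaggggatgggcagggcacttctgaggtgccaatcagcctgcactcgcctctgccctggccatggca
Ackr1, chr1:173333454-173333753, − strand: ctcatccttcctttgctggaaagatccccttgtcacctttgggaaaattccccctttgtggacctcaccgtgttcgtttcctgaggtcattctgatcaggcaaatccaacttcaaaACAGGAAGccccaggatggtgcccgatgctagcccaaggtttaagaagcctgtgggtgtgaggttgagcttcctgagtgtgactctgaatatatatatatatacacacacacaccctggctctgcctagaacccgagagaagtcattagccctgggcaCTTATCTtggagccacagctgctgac
Ccl12, chr11:82101595-82101894, + strand: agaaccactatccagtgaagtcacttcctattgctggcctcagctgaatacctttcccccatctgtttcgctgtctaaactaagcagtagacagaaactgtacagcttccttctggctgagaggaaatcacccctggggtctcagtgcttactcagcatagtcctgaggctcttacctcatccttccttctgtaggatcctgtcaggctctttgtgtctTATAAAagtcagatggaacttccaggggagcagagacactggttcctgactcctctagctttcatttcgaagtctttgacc
Cxcl13, chr5:95956689-95956988, + strand: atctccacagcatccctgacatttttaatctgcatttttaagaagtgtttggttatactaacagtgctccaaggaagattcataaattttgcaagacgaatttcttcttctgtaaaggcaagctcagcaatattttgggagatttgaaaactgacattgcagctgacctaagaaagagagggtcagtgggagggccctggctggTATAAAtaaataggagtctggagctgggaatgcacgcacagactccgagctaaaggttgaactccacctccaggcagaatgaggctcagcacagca
Both chemokine genes, which were lower in the medullary samples, have TATAAA a short way before their start, and the shown window of Fut7 has no match; a second Fut7 window is not shown. TATAAA was found in 13.6% of all 32851 windows, ACAGGAAG in 3.58% and AGATAAG in 3.04%. The blood endothelium list had TATAAA in 3 of 15 windows and ACAGGAAG in 3 of 15. The macrophage list had TATAAA in 0 of 19 windows and ACAGGAAG in 2 of 19. A match is a run of letters and was not tested as a binding site. Of the 148 genes that the naming rule took, 106 had a window. The array probes for these genes lie elsewhere, on mm9 at chr2:25281802-25281861 for Fut7, chr1:175262282-175262341 for Ackr1, chr11:81916764-81916823 for Ccl12 and chr5:96389861-96389920 for Cxcl13.

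Several other endothelial and adhesion genes rose from below background. Pcdh12, a protocadherin of endothelial cells, measured −4.82, −5.0, −6.24, −5.9 and −6.18 in subcapsular and 1.66, −0.05, 1.73, 0.33 and 0.84 in medullary replicates. All 5 medullary arrays and none of the subcapsular ones had it above background, and it was at least 55.6-fold higher (means 0.9 and −5.63; limma adjusted p = 0.00385). Itih3, a heavy chain that is attached to hyaluronan, was at least 68.3-fold higher (means 1.2 and −6.02; limma adjusted p = 0.00385), and its values are among those plotted by array. Angpt2, the ligand that loosens Tie2 signalling in vessels, was at least 50.9-fold higher (means 0.96 and −5.3; limma adjusted p = 0.0229). Medullary replicate 1 was its lowest medullary array at −1.63, against −4.41 for the highest subcapsular one. With normexp background correction the differences were 3.02 for Pcdh12, 3.38 for Itih3 and 3.1 for Angpt2, and Pcdh12 (adjusted p = 0.0546) and Angpt2 (0.13) were not called.

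Such a switch had only 1 direction. In all, 58 genes (0.212%) were above background on every medullary array and on no subcapsular array, and 0 genes (0.0%) showed the reverse. The same arrays had the larger share of probes above background, and its part in this count was not tested. Among them were Sv2a, a synaptic vesicle protein (at least 31.1-fold), Bmp3, a growth factor of the bone morphogenetic protein family (at least 22.2-fold), Pspn, a ligand of the glial growth factor family (at least 8.17-fold) and the antisense transcript Man2c1os (at least 9.91-fold), all called by limma with adjusted p from 0.0059 to 0.0233. The calls of Sv2a, Bmp3, Pspn and Man2c1os were lost with normexp (adjusted p = 0.13 to 0.38). Dsg4, a desmosomal cadherin of hair, was at least 32.8-fold higher by the probe used (limma adjusted p = 0.0253), but its 2 probes pointed opposite ways. Of the 48 called genes, 23 were below background on every subcapsular array and 7 were above it on all 10 arrays.

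Of the called genes, 33 also kept their sign, a lack of overlap and an unadjusted p under 0.05 with normexp, quantile normalization, the deposited table and a block for slide row, 31 of them higher and 2 lower. Beside those given above they included Prdx6b, a relative of the peroxidase Prdx6, Mtres1, a mitochondrial rescue factor, Cbx2, a Polycomb subunit, Lrrc2 and the odorant receptor gene Olfr566, with differences of 4.96 to 5.98 and limma adjusted p of 0.0229 or 0.0233. With the row block none of these 5 was called (limma adjusted p = 0.0553 to 0.0572), and with normexp only Mtres1 was (differences of 2.05 to 3.24). Among genes above background on every array, Card9, the adaptor of fungal lectin receptors, measured −0.43, −1.77, −2.35, −1.55 and −2.16 in subcapsular and 1.61, 1.48, 1.65, 1.45 and 1.53 in medullary replicates. It rose 9.16-fold (3.19 ± 0.49, SE; limma adjusted p = 0.0367), and the medullary values were close to each other. Abcb1a, a drug efflux pump of vessel walls, rose 16.3-fold (limma adjusted p = 0.0408), and Nsmce1, a subunit of the SMC5-SMC6 complex, rose 17.2-fold (0.0471). The calls of Card9, Abcb1a and Nsmce1 held without 3, 2 and 1 of the 10 arrays, and all were lost with the row block (limma adjusted p = 0.0818, 0.112 and 0.0622). Further such genes of low p were Klra10, a natural killer cell receptor, Slc16a7, a monocarboxylate transporter with 2 of 3 probes this way, Dtnb, a dystrobrevin, Cyc1, cytochrome c1, and Siva1, a CD27-binding protein, with differences of 3.18 to 4.61 that did not pass (limma adjusted p = 0.0607 to 0.114).

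Of the chemokine genes, limma called Ccl12 lower in the medullary samples, and the list as a whole did not shift down. Ccl12, a monocyte-attracting ligand of CCR2, measured 2.7, 3.47, 2.33, 1.86 and 2.32 in subcapsular and −3.52, −1.89, −3.29, −2.63 and −3.02 in medullary replicates. It was 42.4-fold lower (−5.41 ± 0.52, SE; limma adjusted p = 0.00385), was above background on all 10 arrays, and stayed called without each array in turn. Cxcl13, the chemokine that draws B cells to follicles, measured 6.61, 7.78, 6.11, 7.07 and 6.26 in subcapsular and 4.02, 2.97, 3.64, 3.88 and 4.53 in medullary replicates. The groups were apart by more than 1.5 log2 units, yet the difference of −2.96 ± 0.52 did not pass (limma adjusted p = 0.0607). Tnfsf11, the cytokine RANKL of marginal reticular cells, measured 1.87, 3.26, 0.47, 1.32 and 0.33 in subcapsular and −5.46, −2.47, −5.62, −7.36 and −2.02 in medullary replicates. It was above background on 5 subcapsular and 2 medullary arrays, with a difference of −6.03 ± 1.06 (limma adjusted p = 0.0607). Against these, Cxcl12, the ligand of CXCR4, differed by 2.8 ± 0.73 (limma adjusted p = 0.211), higher in every medullary array. The 21 chemokines tested had a median difference of 0.22 (0.55 after quantile normalization), with 11 positive, and 1 higher and 2 lower without overlap. The 16 chemokine receptors tested had 0.47, with 2 higher and none lower without overlap, beside 1.03% and 2.06% of all genes. At an unadjusted p under 0.05, 2 of the 16 were higher and 4 lower, beside 6.88% and 4.81% of all genes.

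Fibroblastic and marginal reticular cell markers, to which Tnfsf11, Cxcl13 and Cxcl12 belong, had 19 of 21 members tested and a median of 0.55. Of these 1 was higher and 2 were lower without overlap, beside 1.03% and 2.06% of all genes. The list thus did not move 1 way. Snx13, a sorting nexin and the other gene called lower, differed by −5.26 ± 0.86 (limma adjusted p = 0.0471) and was above background on 5 subcapsular and 1 medullary arrays. Its call held without 1 of the 10 arrays only, and not with the row block (limma adjusted p = 0.0883).

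Macrophage genes were lower in the medullary samples, and most were above background in both sinuses. Siglec1, the sialic acid receptor CD169 of sinus macrophages, measured 6.03, 7.58, 4.6, 4.92 and 5.41 in subcapsular and 0.28, 2.11, −0.0, −0.17 and 3.63 in medullary replicates. Medullary replicate 5 lay closest to the subcapsular range, and the difference of −4.54 ± 0.87 did not pass (limma adjusted p = 0.0843). Timd4, a receptor for phosphatidylserine on dying cells, measured 4.87, 5.7, 3.86, 3.79 and 4.24 in subcapsular and 2.48, 1.22, 0.68, 0.99 and 1.5 in medullary replicates, with a difference of −3.12 ± 0.56 (limma adjusted p = 0.0622). The lysozyme genes Lyz1 and Lyz2 differed by −2.8 ± 0.52 and −2.82 ± 0.55, and Igsf6, an immunoglobulin-family gene of myeloid cells, by −2.64 ± 0.5 (limma adjusted p = 0.0691 to 0.0904). None of these groups overlapped.

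Marco, a scavenger receptor of macrophages and sinus endothelium, measured 9.03, 9.68, 7.62, 7.83 and 7.71 in subcapsular and 6.86, 5.92, 5.78, 5.73 and 6.9 in medullary replicates. Its difference was −2.14 ± 0.58 (limma adjusted p = 0.218). Msr1, a scavenger receptor for modified lipoprotein, differed by −4.57 ± 1.1 (limma adjusted p = 0.175) and Cd36, the receptor for fatty acids and oxidised lipid, by −4.83 ± 0.81 (0.053). Cd36 measured 1.47, 4.19, 2.18, 2.27 and 0.91 in subcapsular and −0.64, −2.98, −3.73, −3.83 and −1.94 in medullary replicates, and was called without either of 2 arrays left out in turn. Sirpa, the receptor of the don't-eat-me signal CD47, differed by −2.24 ± 0.55 (limma adjusted p = 0.187). Mrc1, the mannose receptor, and Adgre1, which encodes the F4/80 antigen stained on the sections, overlapped between the sinuses, with differences of −2.49 ± 1.02 and −0.81 ± 0.91 (limma adjusted p = 0.388 and 0.775).

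The macrophage list had 26 genes, all on the array, of which 24 were tested and 21 were above background on all 10 arrays. Limma called 0 of them, 14 were lower at an unadjusted p under 0.05 (4.81% of all genes), and 10 were lower without overlap (2.06% of all genes). All 24 differences were negative with this scaling. The median was −2.06 over the 24 and −2.14 over the 21 (all genes 0.08 and −0.26). After quantile normalization it was −1.41, 7 were lower without overlap and 2 of the 24 were positive. It was −2.22 within row 1, −2.16 within row 2, and −2.32 to −1.78 without each array in turn. The mean level of the list was 2.7 to 4.79 on subcapsular and 0.68 to 2.05 on medullary arrays, and its summed level 813 to 3010 and 426 to 642 multiples of the 75th percentile. Macrophage genes were thus measured in every sample of cells chosen as endothelium, and their part in the sinus difference of other genes was not tested.

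Scavenger and lectin receptors, which share 13 of 28 listed genes with other lists, had a median of −1.76 over 22 tested and −2.01 after quantile normalization. Of them 4 were lower without overlap and none higher, beside 2.06% and 1.03% of all genes. Complement genes had a median of −1.35 over 19 tested (−0.67 after quantile normalization), with 6 lower without overlap (2.06% of all genes) and none called by limma. C1qa, a chain of the C1q recognition protein that macrophages make, differed by −4.09 ± 1.01, and Cd55, a membrane inhibitor, by −3.08 ± 0.7 (limma adjusted p = 0.188 and 0.155). C1qa was highest in subcapsular replicate 2 at 6.68 and lowest in medullary replicate 4 at −2.37, and its subcapsular values ran down to 2.67, just above the 2.3 of medullary replicate 5.

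Lysosomal cathepsins and their inhibitors had a median of −1.57 over 16 tested, 6 lower without overlap (2.06% of all genes) and none called. The proteases Ctsc, Ctsb and Ctss differed by −2.14 ± 0.57, −2.2 ± 0.66 and −1.56 ± 0.51 (limma adjusted p = 0.211 to 0.303), and of the 2 Ctsc probes only 1 pointed this way. After quantile normalization the median was −0.71 and 3 were lower without overlap. Lipa, the lysosomal acid lipase, differed by −3.05 ± 0.7, the cholesterol exporter gene Abcg1 by −2.02 ± 0.6, and Psap, which encodes the saposins, by −1.67 ± 0.54 (limma adjusted p = 0.156 to 0.297), with no overlap in any of the 3. Lipid uptake and fatty acid genes as a list had a median of −0.49 over 21 tested and 0.02 after quantile normalization. Atp6v0a2, a subunit of the proton pump that acidifies vesicles, differed by −2.9 ± 0.52 (limma adjusted p = 0.0613).

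**Figure D2:**
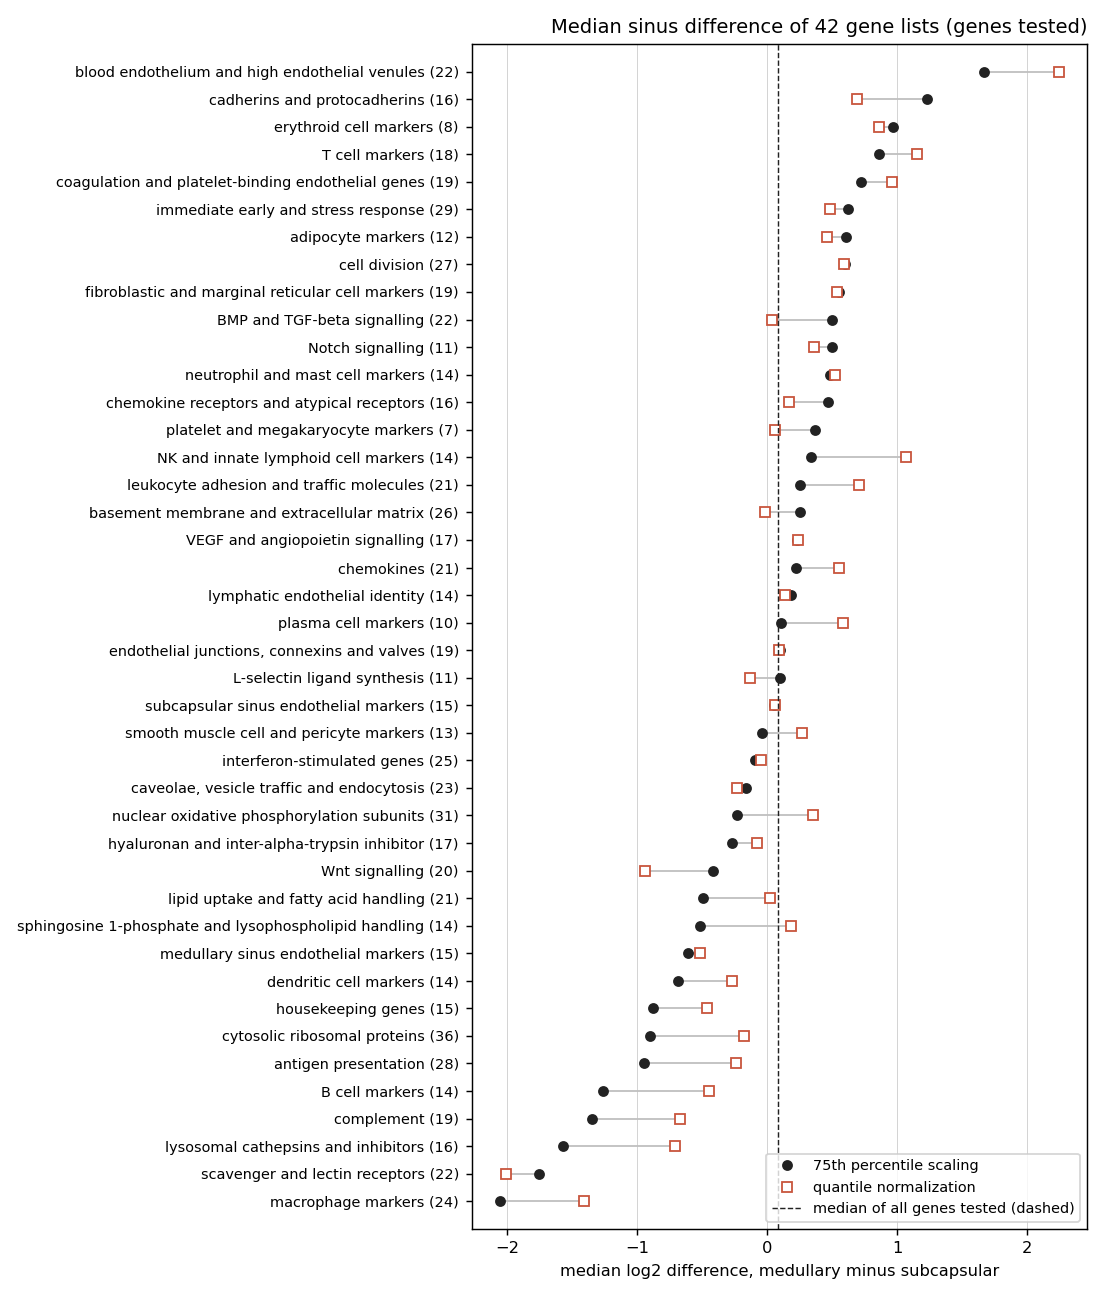
Median log2 difference, medullary minus subcapsular, of 42 gene lists, with the number of genes tested in brackets; black points use the 75th percentile scaling and open squares quantile normalization. Macrophage (−2.06 and −1.41) and scavenger receptor lists (−1.76 and −2.01) lay lowest and the blood endothelium list (1.67 and 2.25) highest, and several lists between them changed sign with the scaling.

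No B cell gene was called, and the list's shift was of the size seen in housekeeping genes after quantile normalization (−0.45 and −0.46). The mean level of the B cell list was 3.46 to 4.16 on subcapsular and 2.55 to 2.78 on medullary arrays, and its summed level 322 to 893 and 151 to 232. Ms4a1, which encodes CD20, measured 3.02, 1.11, 2.32, 1.58 and 2.27 in subcapsular and 0.22, 0.09, 0.28, 0.02 and −0.01 in medullary replicates. Its difference of −1.94 ± 0.48 did not pass (limma adjusted p = 0.191). Fcrla, a receptor-like protein inside B cells, differed by −2.11 ± 0.47 and Bank1, a B cell receptor scaffold, by −3.03 ± 0.96 (limma adjusted p = 0.149 and 0.284). Ralgps2, a guanine nucleotide exchange factor, differed by −3.07 ± 0.52 (limma adjusted p = 0.0535). Of 14 B cell genes tested 6 were lower without overlap, beside 2.06% of all genes. The median was −1.26, and −0.45 after quantile normalization, when 2 were lower without overlap (1.93% of all genes).

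Antigen presentation genes had a median of −0.95 over 28 tested and 5 lower without overlap (2.06% of all genes). Among them were H2-DMa, the peptide editor of class II molecules (−2.53 ± 0.72), and the class II chain H2-Aa (−1.51 ± 0.5; limma adjusted p = 0.24 and 0.303). After quantile normalization 3 were lower without overlap (1.93% of all genes), and H2-DMa was not among them. Genes that every cell uses had negative medians as well with the 75th percentile scaling. The 36 cytosolic ribosomal protein genes had a median of −0.9 and 31 negative differences, and 15 housekeeping genes had −0.88. Among them Actb, the cytoplasmic actin gene, differed by −1.1 ± 0.48 and Rpl23, with 2 of 3 probes this way, by −1.05 ± 0.44, each without overlap (limma adjusted p = 0.411 and 0.394). After quantile normalization the medians were −0.18 for ribosomal, −0.46 for housekeeping and −0.24 for antigen presentation genes. Beside these, the medians were −0.45 for B cell, −0.67 for complement, −0.71 for cathepsin and −1.41 for macrophage genes. The mean levels of housekeeping genes (2.56 to 3.2 on subcapsular and 1.8 to 2.17 on medullary arrays) and of antigen presentation genes (4.08 to 4.86 and 3.22 to 3.69) did not overlap either.

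**Figure D3:**
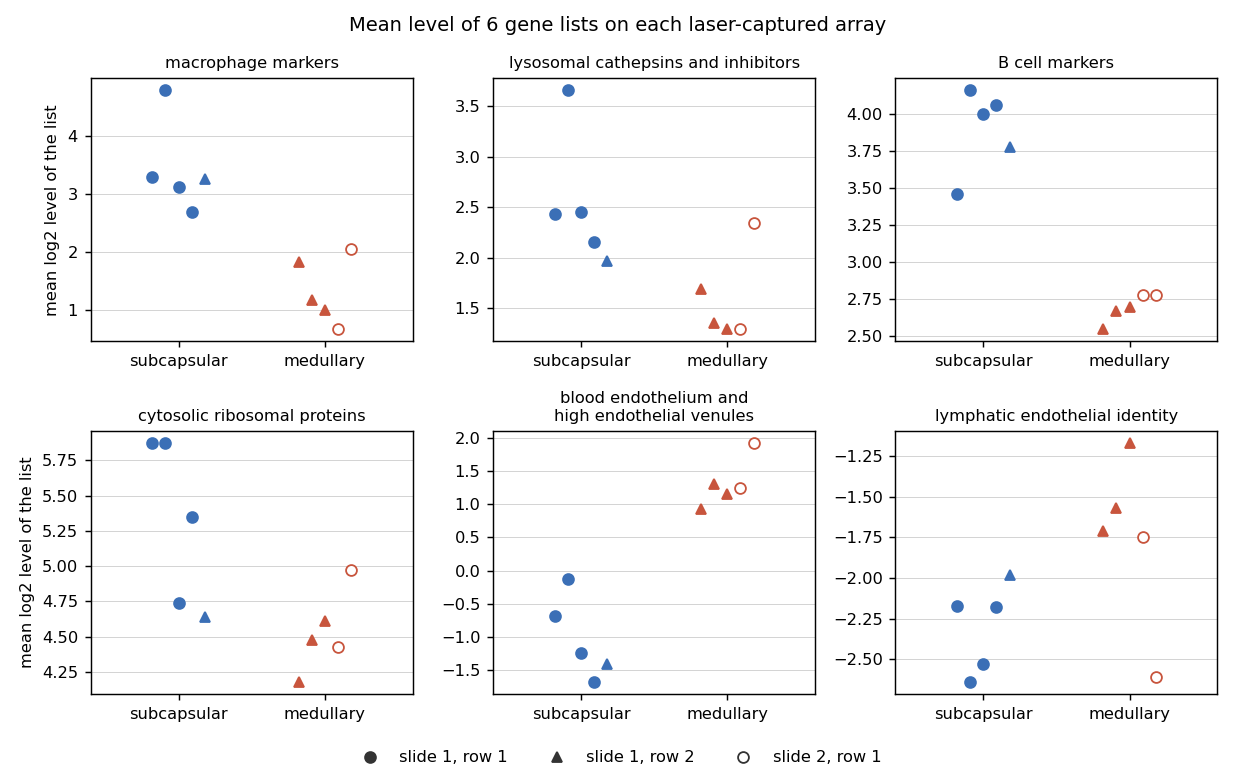
Mean log2 level of 6 gene lists on each laser-captured array, 5 subcapsular (blue) and 5 medullary (red) samples, with symbols for slide and row and a separate vertical scale in each panel. The macrophage, B cell and blood endothelium lists had no overlap between sinuses. Among lists not plotted, housekeeping, antigen presentation, T cell, scavenger and lectin receptor, cadherin, L-selectin ligand synthesis, and VEGF and angiopoietin lists had none either. Ribosomal, lysosomal and lymphatic identity lists overlapped.

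Lymphatic identity did not separate the sinuses. Of 17 listed genes 14 were tested, none had an unadjusted p under 0.05 or lay without overlap, and the median was 0.18. Prox1 measured −0.3, −2.71, −1.29, −3.47 and −1.53 in subcapsular and −3.65, −1.69, −3.24, −3.02 and −3.74 in medullary replicates, a difference of −1.21 ± 0.7 (limma adjusted p = 0.527). Lyve1 and Flt4 differed by −0.61 ± 1.31 and −0.62 ± 1.68, each with an SE larger than the difference, and changed sign under other settings. Pecam1 measured 1.12, 6.83, 5.04, 4.55 and 3.38 in subcapsular and 4.76, 5.0, 4.0, 4.91 and 5.45 in medullary replicates, with 1 low subcapsular array, a difference of 0.64 ± 0.93 (limma adjusted p = 0.829) that was −0.13 without subcapsular replicate 1. Cdh5, the cadherin of endothelial junctions, differed by 1.14 ± 0.77 and Pdpn by 2.31 ± 1.58 (limma adjusted p = 0.602 and 0.607).

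Genes known as markers of either sinus did not move as groups. The 15 subcapsular markers tested had a median of 0.05, with 2 higher (Cav1 and Glycam1) and 2 lower (Cd36 and Msr1) without overlap. The 15 medullary markers had −0.61, with 2 higher (Itih5 and Emcn) and 1 lower (Marco) without overlap. Among all genes, 1.03% were higher and 2.06% lower without overlap. Ackr4, the chemokine scavenger of the subcapsular ceiling, measured −6.12, −4.53, 2.88, 3.65 and 2.79 in subcapsular and −6.32, −3.67, −6.66, −6.48 and −5.33 in medullary replicates. It was thus above background on 3 subcapsular and 1 medullary arrays, and the difference of −5.43 ± 1.9 did not pass (limma adjusted p = 0.327). Madcam1, an addressin, differed by 1.07 ± 0.56 (limma adjusted p = 0.488). Of the medullary markers, Itih5, a second inter-alpha-trypsin heavy chain, differed by 5.98 ± 1.06 (limma adjusted p = 0.0607). Its signal exceeded background on 1 subcapsular and 5 medullary arrays. The medullary markers Marco and Mrc1 differed the other way. Mmrn1, a multimerin of lymphatic vessels, differed by −2.94 ± 1.37, and Cldn5, a tight junction claudin, by −2.51 ± 0.82 (limma adjusted p = 0.436 and 0.3).

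Of the other cell types, T cell genes had a median of 0.86 over 18 tested, none of them without overlap, and 1.15 with 16 of 18 positive after quantile normalization. The mean level of the T cell list did not overlap, at 0.13 to 1.05 on subcapsular and 1.48 to 1.83 on medullary arrays. Cd3e, a chain of the T cell receptor complex, differed by 1.17 ± 0.51 (limma adjusted p = 0.411). The summed T cell level overlapped, at 88.9 to 301 on subcapsular and 88.1 to 116 on medullary arrays. Smooth muscle and pericyte genes had a median of −0.04 over 13 tested; Acta2, smooth muscle actin, differed by 2.95 ± 1.1 and Rgs5, a pericyte regulator of G-protein signalling, by 2.86 ± 0.82 (limma adjusted p = 0.356 and 0.239). Plasma cell (0.11), dendritic cell (−0.69), NK and innate lymphoid cell (0.34, and 1.07 after quantile normalization), neutrophil and mast cell (0.48), adipocyte (0.61), and platelet lists (0.37) had at most 1 gene without overlap each, as did the erythroid list (0.97). Pf4, the platelet chemokine, was above background on 4 of 5 medullary arrays and on 0 of 5 subcapsular ones, and was at least 7.74-fold higher (means −1.94 and −6.76; limma adjusted p = 0.211).

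Signalling, matrix and cell process lists had medians of −0.52 to 0.72, beside 0.08 for all genes. VEGF and angiopoietin signalling had 0.23 over 17 tested with 1 gene called, Angpt2, and BMP and TGF-beta signalling 0.5 over 22 with 1 called, Bmp3. Notch (0.5), Wnt (−0.42), sphingosine 1-phosphate (−0.52), basement membrane and matrix (0.25), coagulation (0.72), hyaluronan (−0.27), junction and valve (0.1), leukocyte adhesion (0.25), interferon-stimulated (−0.09), vesicle traffic (−0.16), cell division (0.6), stress response (0.62) and oxidative phosphorylation lists (−0.23) had at most 5 genes with an unadjusted p under 0.05 in a direction. Of these lists, hyaluronan genes had 1 called higher, Itih3, and vesicle traffic genes 1 called lower, Snx13. At an unadjusted p under 0.05, 5 of 19 coagulation and 4 of 19 junction and valve genes were higher, beside 6.88% of all genes. Lower were 5 of 23 vesicle traffic and 4 of 31 oxidative phosphorylation genes, beside 4.81% of all genes. Each of these lists had 1 such gene the other way. Cadherins and protocadherins had a median of 1.23 over 16 tested but −0.54 over the 7 above background on all 10 arrays, and L-selectin ligand synthesis 0.1, with Fut7 and Chst4 the 2 called. Among matrix genes, Hspg2, the basement membrane proteoglycan perlecan, differed by 2.72 ± 0.95 and Col4a2, a type IV collagen chain, by 2.36 ± 1.01 (limma adjusted p = 0.325 and 0.409).

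The row of the slide was partly tied to the sinus, so each difference was also fitted with row as a block and within each row. With the block, limma called 13 genes higher (0.0475%) and 1 lower (0.00366%), and 13 of these 14 were called without it. The named ones were Fut7, Ackr1, Pcdh12, Itih3, Sv2a, Pspn, Man2c1os, Olfr1138, Ptrhd1 and Ccl12, and Ubap2, a ubiquitin-associated protein whose adjusted p without the block was 0.0641. Angpt2, Bmp3 and Dsg4 were not called with it (limma adjusted p = 0.0514, 0.0514 and 0.0553). Within row 1, where the medullary arrays lay on the other slide, Fut7 differed by 7.52, Ackr1 by 6.08 and Ccl12 by −5.41. Within row 2 of slide 1, with 1 subcapsular array, they differed by 6.45, 5.35 and −5.22. Some genes differed far more in row 1, such as Cyc1 (6.49 and 1.96), Emcn (6.28 and 1.65), Itih5 (6.81 and 2.08) and Msr1 (−7.41 and −0.86). Row 1 alone and row 2 alone gave no called gene with limma, with 1507 and 3498 genes at an unadjusted p under 0.05. Slide 1 alone, with 5 subcapsular and 3 medullary arrays, gave 208 higher and 4 lower.

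The sorted samples give the same contrast in 4 other samples, with 2 arrays a sinus, sorted with a lineage cocktail, CD73 and podoplanin. The cocktail holds antibodies to T cells, B cells and CD11b-positive cells. All 4 lay on slide 2, the subcapsular pair in row 1 and the medullary pair in row 2, so row and sinus cannot be told apart among them. Of the 283 genes higher without overlap in captured cells, 208 were also higher in sorted medullary cells (73.5%, beside 64.9% of all genes higher in captured cells). Of the 563 lower ones, 503 were lower (89.3%, beside 46.6%). That last share moved with the scaling, and with the deposited table it was 46.2% of 528 genes, beside 46.6%, and the share for higher genes 78.9% of 437, beside 56.8%. Of the 48 called genes 30 had the same sign (62.5%, beside 56.2% of all genes), but 46 of the 48 were higher ones. Of those 46, 28 were higher in sorted cells, which is no more than the 64.9% among all genes higher in captured cells.

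The gene groups split in the sorted samples. The macrophage list had a median of −0.99 there with 17 of 24 negative, while all genes had 0.69. Ribosomal genes had −0.95 (34 of 36 negative), housekeeping genes −1.37 (13 of 15) and antigen presentation genes −1.91 (24 of 28), so the macrophage median was no lower than those of housekeeping and antigen presentation genes. The B cell list had −2.78 with 13 of 14 negative. The blood endothelium list turned, with a median of −1.76 and 15 of 22 negative (−2.11 with the deposited table). Siglec1 differed by −4.02 and Timd4 by −5.55 in sorted cells, beside −4.54 and −3.12 in captured ones (limma adjusted p = 0.136 and 0.0125 in sorted cells). Ccl12 differed by −2.38, Cxcl13 by −2.09, Marco by 0.03, Fut7 by 0.74, Chst4 by 0.85 and Glycam1 by −5.55 in sorted cells, none passing. The test of the difference between isolations called 36 of 29657 genes more positive and 71 more negative in sorted cells (0.361% in all). The 48 called genes were chosen by their captured difference, which this test subtracts, so their share here is no separate result. Of the 48, 9 were among those called by this test. They included Ackr1, Pcdh12, Angpt2, Abcb1a and Mtres1, which differed by −1.48, −2.41, −2.04, −2.61 and −5.36 in sorted cells, and Itih3, which differed by 0.72. Pecam1 differed by −8.22 and Nt5e, which encodes the CD73 used in the sort, by −8.56 in sorted cells (limma adjusted p = 0.00907 and 0.0175), against 0.64 and 4.2 in captured ones, and both differences between isolations were called (adjusted p = 0.0399 and 0.0197). Isolation and node sites cannot be told apart in this comparison, nor can isolation and slide for the subcapsular samples, whose captured arrays all lay on slide 1.

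**Figure D4:**
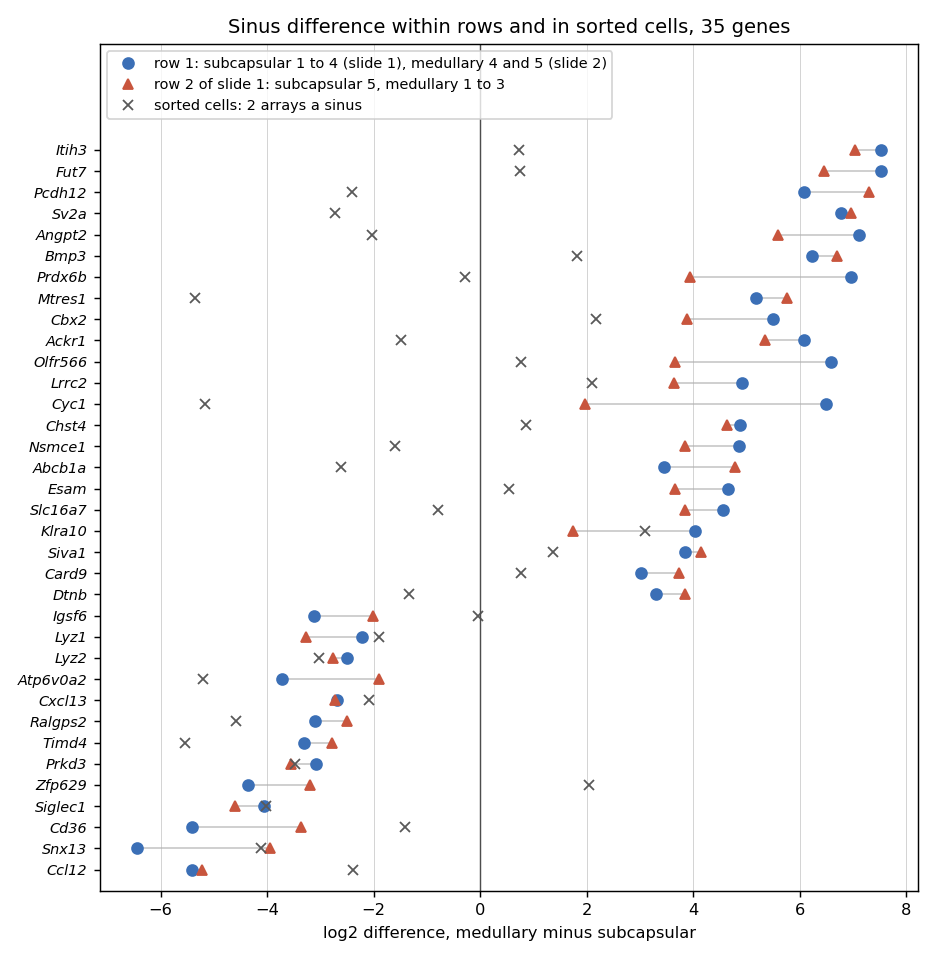
Log2 difference, medullary minus subcapsular, of 35 genes within row 1 (circles), within row 2 of slide 1 (triangles) and in sorted cells (crosses, 2 arrays a sinus). Both rows point the same way for every gene shown, as the choice of genes without overlap requires, while the crosses lie near or across 0 for many of the genes that were higher in captured medullary cells.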

How the data were processed

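RNA of 10 laser-captured and 4 sorted samples was amplified, and the Cy3 product was read on Agilent arrays of 1 colour, per the labels' protocols. The deposited intensity values were background-adjusted by the scanner software, Agilent Feature Extraction 10.7.3.1, per the file headers. The authors also deposited a log2 table with a median of 5.43 on each array, whose making is not given in the sources used here. The depth of an array is its number of probes above background, and the number of arrays limits the precision.

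Non-control probes (55681) took log2 intensity minus the array's 75th percentile. A gene was named through RefSeq where an accession matched (27235 probes) and took the probe with the highest mean. Genes above background on 3 of 5 arrays of a sinus entered a fit (limma 3.58.1, R 4.3.3) with Benjamini-Hochberg adjustment, after a test on simulated data. The 14-array fit had 4 group means. For a gene below background on every array of a group, the fold is a lower bound. Each such array is set at its dimmest probe still above background, or at the gene's own level where that is higher. Replicate numbers did not pair the samples (correlations of deviations −0.02 to 0.005). Outlier spots were left out. Figures used matplotlib 3.10.9.

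Members, 42 lists and tests were chosen with earlier results of these data known. Named genes were, in each direction, the 12 of lowest p above background on all 10 arrays without overlap, up to 12 called genes that held over 4 alternatives, up to 3 of lowest p per list and any called member, those called with the row block, 5 switched genes, and 20 fixed genes. Names that are only identifiers (9 of 48 called) were counted, not named, and 1 gene that the rule took is not reported here. Alternatives were normexp (offset 50), quantile normalization, the percentile over detected probes, the deposited table, the probe mean, row, slide and replicate blocks, each row and slide 1 alone, other filters, trend and robust eBayes, all 14 arrays, and leaving out each array.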

Additional observations from a re-analysis of the deposited data

Results flagged for a closer look

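The sinus difference itself differed between isolations for 10 named genes, by limma's test of the difference over 14 arrays (Benjamini-Hochberg adjusted p = 0.00569 to 0.0424). The value is that in sorted cells minus that in captured cells, on the log2 scale. It was −6.92 for Ackr1, −8.94 for Pcdh12, −8.31 for Angpt2, −6.5 for Itih3, −6.64 for Abcb1a, −9.78 for Cyc1, −11.17 for Mtres1, −12.76 for Nt5e, −8.86 for Pecam1 and −6.52 for Gbp3, a guanylate-binding protein gene induced by interferon. All were more negative in sorted cells. Most of them had been named for a higher level in captured medullary cells, which this value subtracts, so their shared direction is no separate result. Among all genes called by this test, 71 were more negative and 36 more positive in sorted cells. With 2 sorted arrays a sinus the spread of the sorted samples was measured on few arrays.

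Among 196 groups of 5 arrays examined, 15 had 1 array far from the other 4, where chance flags about 1 in 20 groups. Subcapsular replicate 2 was far above its group for Fut7 (−1.89), Igsf6 (6.31), Ralgps2 (3.94), Sirpa (3.92), Ctss (4.83) and Galnt1, a glycosyltransferase gene (5.83), and far below it for Cdh5 (−4.8) and Mmrn1 (−5.32). Subcapsular replicate 4 was far above for Pdpn (−0.55) and Acta2 (0.69), and subcapsular replicate 5 for Itih5 (−1.52). In the medullary group, replicate 5 was far above for Fut7 (5.24), replicate 1 far below for Chst4 (0.4), replicate 4 far below for Pf4 (−7.31) and replicate 3 far below for Ralgps2 (−1.21).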

How the results depend on the processing

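The 48 called genes became 8 with normexp (6 higher and 2 lower), 14 with quantile normalization (9 and 5), 16 with the deposited table (11 and 5), 229 with the percentile taken over detected probes (220 and 9), 104 and 4 with the filters of all 5 arrays of a sinus and all 10 arrays, 14 with the row block, 127 with the slide block and 212 on slide 1 alone. There were 0 with limma in row 1, in row 2 and with the replicate block, which had 2809 genes at an unadjusted p under 0.05. Leaving out 1 array gave 17 (without medullary replicate 2) to 96 (without medullary replicate 4 or subcapsular replicate 5), and 92 without medullary replicate 5. The share of probes above background differed by 11.9 points in row 1 alone (exact permutation p = 0.0667, the smallest possible there) and by 10.9 to 15.4 points without each array. The test between isolations called 769 genes with the deposited table and 383 with array weights by isolation. Lyve1 turned to 0.12 with the percentile over detected probes, 0.06 with the row block, 1.46 in row 1, and −1.34 to 0.04 without 1 array. Flt4 turned to 0.11 with that percentile, 1.39 with the slide block and on slide 1, 5.53 in row 2, and −1.66 to 0.17 without 1 array. Pecam1 ran from −0.13 (without subcapsular replicate 1) to 1.3 without 1 array. The causes were not tested. A gene below background on every array of a sinus has only a bound there, and 5 arrays a sinus limit the precision.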
